A study of Mus musculus with 16 samples.

Results

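The genes described here are 10 parts of the machinery by which a T cell recognises antigen: the CD3 chains Cd3d, Cd3e, Cd3g and Cd247, the receptor constant genes Trac, Trbc1 and Trbc2, and the signalling proteins Lck, Zap70 and Lat. They were taken by symbol from a table of 55146 genes, and all 10 had a row. RNA was measured in 16 mouse breast tumours, 4 in each of 4 groups. Every tumour derived from MMTV-PyMT transgenic mice, in which the mouse mammary tumour virus promoter drives the polyoma middle T antigen in mammary epithelium; tissue of 12-week-old donors was placed in the 4th mammary fat pad of FVB recipients. Treatment lasted 28 days. The groups received vehicle; anti-PD-L1, an antibody dosed 2 times weekly at 5 mg/kg; sonidegib, dosed daily at 20 mg/kg; or both agents together (the combination). PD-L1 is the ligand of the T cell inhibitory receptor PD-1, and sonidegib blocks Smoothened, which carries the Hedgehog signal into the cell. The comparison addressed which genes differed between the treatments, with immune infiltration of the tumour as the stated interest. Nothing in the labels says whether tumours of a group came from separate donors, so p-values measure only the spread between these libraries.

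The T cell receptor is a pair of variable chains, alpha and beta in most T cells, whose constant parts are encoded by Trac and by Trbc1 or Trbc2. The pair cannot signal alone: it sits in the membrane with the CD3 gamma, delta and epsilon chains (Cd3g, Cd3d, Cd3e) and the zeta chain (Cd247), whose tails carry tyrosine motifs. After antigen binding the kinase Lck phosphorylates these tyrosines, the kinase Zap70 docks on them, and Zap70 in turn phosphorylates the membrane adaptor Lat, on which downstream effectors assemble.

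Levels are given in FPKM, a count of fragments scaled to transcript length and to the mapped fragments of the library. Differences are in log2(FPKM + 1), which understates the change of genes near or below 1 FPKM. A gene was called at an adjusted p of at most 0.05 (limma, Benjamini-Hochberg over 22543 tested genes with a mean of at least 0.1 FPKM; all 10 genes passed this filter). All 10 were low: means over the 16 libraries ran from 0.298 FPKM for Zap70 to 2.68 FPKM for Trbc2. At the estimated depth of 33.5 to 58.7 M fragments a library, the lowest value of Cd3d rests on about 0.8 fragments and the highest value of Cd3g on about 710.1, if all fragments fell on the longest transcript. No value of these genes was listed at 0. In bulk tumour RNA, fewer T cells and less RNA per T cell cannot be told apart.

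Libraries stood apart in ways that bear on these genes. Vehicle replicate 3 had 11361 genes at 1 FPKM or more against 13107 to 14784 in the others, and its median gene lay 0.81 log2 units below the median library. Combination replicate 1 did not resemble the other combination libraries in these genes: it was the lowest of its group for 8 of the 10, lay within the vehicle range for 6 and below every vehicle library for 1. Dependence on GC content also differed: the slope of log2 level on gene GC was 3.65 to 4.90 log2 units per 100 percentage points in vehicle replicates 1 to 3 and -3.88 to -2.60 in combination replicates 2 to 4, while vehicle replicate 4 had -0.26 and combination replicate 1 had 2.46. Of the 10 genes, Cd3g had the lowest GC content (38.5%), and Zap70 (59.6%), Lat (57.5%) and Lck (54.3%) had the highest. Combination replicates 2 and 4 had 41949 and 38524 FPKM of mitochondrial mRNA, and the other libraries 3552 to 18642 FPKM. Library numbers run through the groups in turn, so library order and treatment cannot be told apart.

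All 10 genes had their highest group mean in the combination, and 9 had their lowest in vehicle, the exception being Cd3e with its lowest mean in sonidegib. The full order combination, anti-PD-L1, sonidegib, vehicle held for 7 genes. The share of all genes with such orders was not counted. The median gene of at least 1 FPKM was itself above vehicle, by 0.26 in the combination, 0.31 with anti-PD-L1 and 0.34 with sonidegib. Against vehicle, Cd3g and Lat rose in the combination (2 of 10 called; 1.89% of all tested genes were called higher, and 2.06% in either direction), and none fell (0.164% of all genes were called lower). Of the 10, 9 had an unadjusted p under 0.05 (27.2% of all genes), and for 3, Cd3g, Cd247 and Zap70, every combination library exceeded every vehicle library (3.69% of all genes). No member was called in any other comparison. The median difference of the 10 genes from vehicle was 0.51, beside 0.13 for all tested genes. For 6 of them (Cd3e, Cd3g, Trac, Trbc1, Trbc2 and Lat), combination replicates 2 to 4 exceeded all 13 other libraries. That split sets aside the combination library that was lowest for these genes, and the share of all genes that meet it was not counted.

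**Figure D1:**
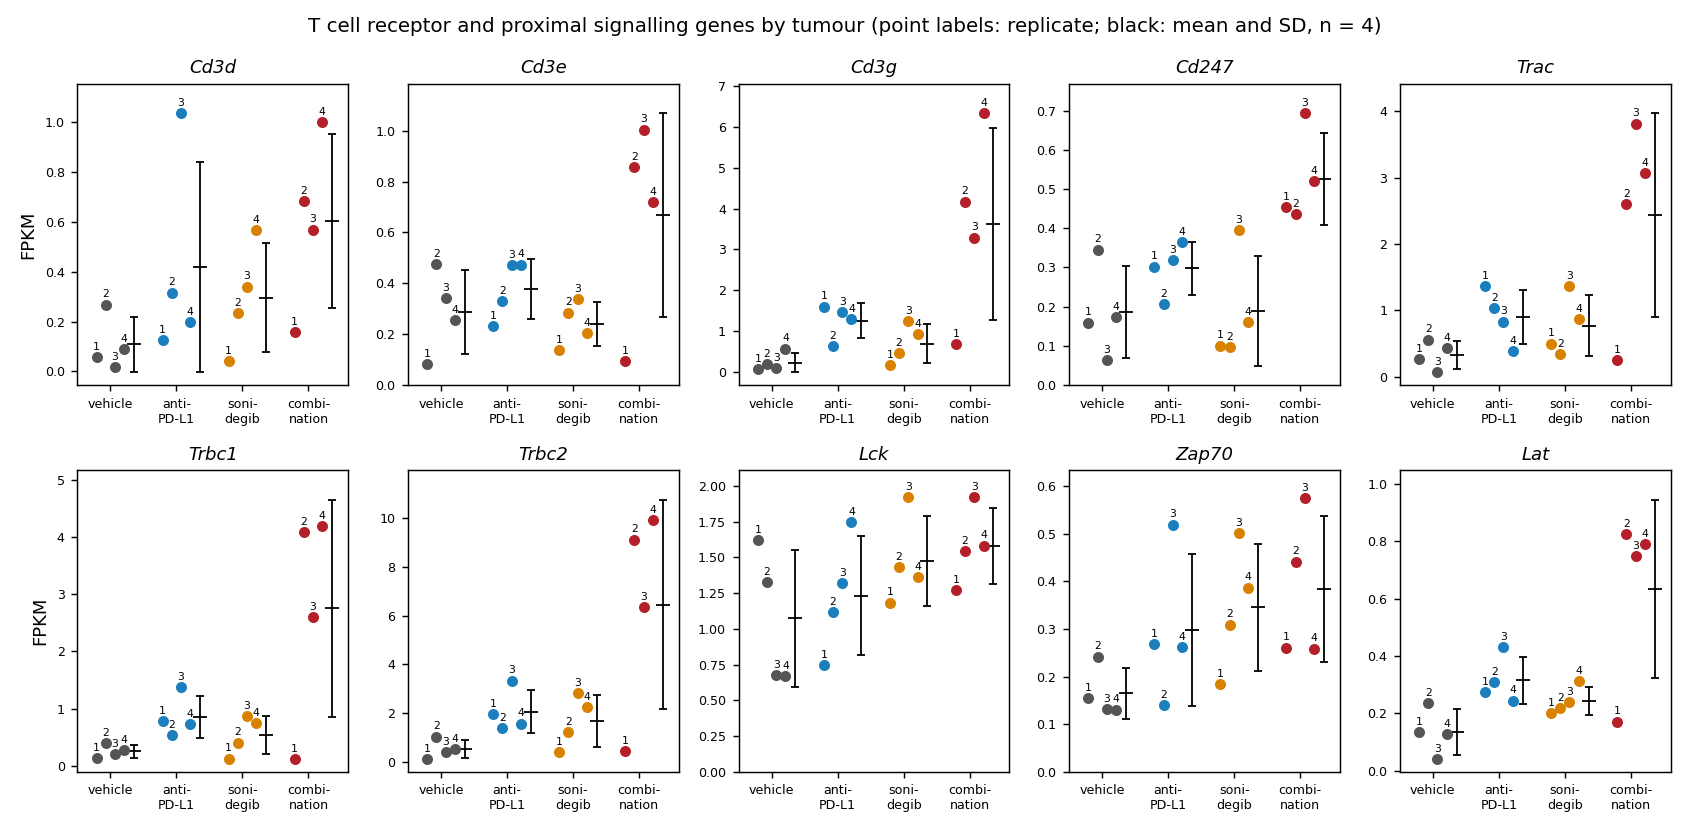
FPKM of each of the 10 genes in every library, 1 panel per gene with its own linear axis; points are libraries labelled by replicate number, and bars are group means ± SD (n = 4). Combination replicates 2 to 4 lie high for most genes while combination replicate 1 lies among the vehicle values for 6 of the 10, and Lck has the least separation.

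The CD3 chains were led by Cd3g, the gamma chain. Cd3g (ENSMUSG00000002033.14; GRCm38 chr9:44969572-44980431, minus strand) measured 0.0746, 0.198, 0.0905 and 0.574 FPKM in vehicle replicates 1 to 4, 1.6, 0.635, 1.46 and 1.30 with anti-PD-L1, 0.165, 0.474, 1.24 and 0.920 with sonidegib, and 0.679, 4.17, 3.29 and 6.34 in the combination. Every combination library was above every vehicle library, by little for combination replicate 1, and so was every anti-PD-L1 library; sonidegib spanned low and high values. The mean was 3.62 ± 2.34 FPKM (SD, n = 4) in the combination and 0.234 ± 0.233 FPKM (SD, n = 4) in vehicle. The log2 difference was 1.74 (SE 0.34, limma adjusted p = 0.0451), and with a pseudocount of 0.1 in place of 1 it was 3.35. With the GC trend of each library removed from the log2 values it was 0.95. The call was close to the threshold: it was lost when any 1 of 12 of the 16 libraries was left out, with adjusted p = 0.157 without combination replicate 4, and the difference was 2.16 (adjusted p = 0.000108) without combination replicate 1.

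Cd3d, the delta chain, starts 1355 bases from Cd3g on the opposite strand (GRCm38 chr9:44981786-44987339, plus strand). Its values were 0.0583, 0.268, 0.0176 and 0.0881 FPKM in vehicle, 0.125, 0.315, 1.04 and 0.197 with anti-PD-L1, 0.0427, 0.235, 0.340 and 0.568 with sonidegib, and 0.159, 0.681, 0.568 and 1.00 in the combination. The groups overlapped: combination replicate 1 was below vehicle replicate 2, and the highest value of all was anti-PD-L1 replicate 3. The difference of combination from vehicle was 0.51 (SE 0.18, limma adjusted p = 0.0902). Cd3g was above Cd3d in 15 of the 16 libraries, although both chains pair with Cd3e in the same complex. The 250 bases before each start site are shown because the neighbours are transcribed in opposite directions from this short interval (RefSeq promoter table, GRCm38.p6, each in its own direction; capitals mark matches to the ETS core GGAAG or its complement CTTCC and to the RUNX motif TGTGGT or ACCACA).
Cd3g, chr9:44980432-44980681, minus strand: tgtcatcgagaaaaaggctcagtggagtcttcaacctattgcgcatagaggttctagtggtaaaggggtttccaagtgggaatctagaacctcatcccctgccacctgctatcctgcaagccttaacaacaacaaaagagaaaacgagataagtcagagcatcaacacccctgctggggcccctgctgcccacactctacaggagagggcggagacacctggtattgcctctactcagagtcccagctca
Cd3d, chr9:44981536-44981785, plus strand: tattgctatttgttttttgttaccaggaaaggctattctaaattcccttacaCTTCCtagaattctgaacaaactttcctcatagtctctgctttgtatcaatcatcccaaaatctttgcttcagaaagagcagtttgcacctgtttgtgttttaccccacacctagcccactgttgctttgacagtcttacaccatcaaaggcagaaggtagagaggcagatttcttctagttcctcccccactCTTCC
The Cd3d window holds 2 ETS cores and the Cd3g window none; neither holds the RUNX motif. Of 32851 mouse windows of this length, 64.1% hold an ETS core and 14% the RUNX motif, and of the 7 members with a window, 6 and 2 had such a match in at least 1 window.

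Cd3e, the epsilon chain that pairs with both others (GRCm38 chr9:44998740-45009627, minus strand), overlaps an antisense gene, Gm48719. Its values were 0.0828, 0.476, 0.341 and 0.254 FPKM in vehicle, 0.232, 0.331, 0.471 and 0.473 with anti-PD-L1, 0.138, 0.285, 0.336 and 0.203 with sonidegib, and 0.0953, 0.856, 1.00 and 0.720 in the combination. Combination replicates 2 to 4 were the 3 highest libraries and combination replicate 1 the second lowest. The difference from vehicle was 0.35 (SE 0.15, limma adjusted p = 0.159). It was 0.54 (adjusted p = 0.00728) without combination replicate 1 and 0.25 (adjusted p = 0.386) without combination replicate 3. Cd247, the zeta chain (GRCm38 chr1:165788681-165877277, plus strand), overlaps Pou2f1 on the other strand. It measured 0.159, 0.346, 0.0645 and 0.173 FPKM in vehicle, 0.302, 0.206, 0.318 and 0.365 with anti-PD-L1, 0.101, 0.0977, 0.395 and 0.161 with sonidegib, and 0.455, 0.436, 0.693 and 0.521 in the combination. Here combination replicate 1 was as high as its group, and all 4 combination libraries exceeded all 12 others, by little over sonidegib replicate 3. The difference from vehicle, 0.37 (SE 0.10, limma adjusted p = 0.0516), missed the threshold.

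Of the receptor constant genes, Trac, the alpha constant gene (ENSMUSG00000076928.5; GRCm38 chr14:54220521-54224206, plus strand), measured 0.267, 0.560, 0.0729 and 0.438 FPKM in vehicle, 1.37, 1.04, 0.834 and 0.394 with anti-PD-L1, 0.502, 0.340, 1.37 and 0.872 with sonidegib, and 0.258, 2.60, 3.81 and 3.07 in the combination. Combination replicates 2 to 4 stood above all other libraries, and combination replicate 1 was below 3 of the 4 vehicle libraries. The difference from vehicle was 1.22 (SE 0.32, limma adjusted p = 0.0516).

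Trbc1 and Trbc2 are alternative beta constant genes on chromosome 6 (GRCm38 chr6:41538218-41539881 and chr6:41546730-41548352, both plus strand). Their coding sequences are alike over 518 bases, with 23 differing positions (95.6% identity) and none in the first 259 bases, so fragments from the identical stretch can be divided between the genes only by the model of the counting program, and their separate values are uncertain. Transcript sequence outside the coding bases was not compared. The last 150 coding bases, shown here, hold 22 of the 23 coding differences by which a fragment can be assigned to either gene (GENCODE M21 transcripts, 5′ to 3′, with capitals at the differing bases).
Trbc1: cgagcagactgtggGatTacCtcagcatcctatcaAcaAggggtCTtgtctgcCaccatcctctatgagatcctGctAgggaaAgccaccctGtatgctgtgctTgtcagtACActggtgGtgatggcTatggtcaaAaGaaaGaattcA
Trbc2: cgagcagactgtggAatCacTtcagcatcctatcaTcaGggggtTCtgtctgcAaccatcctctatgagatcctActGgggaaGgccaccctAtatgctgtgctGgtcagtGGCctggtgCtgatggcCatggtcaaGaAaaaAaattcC
Trbc1 measured 0.137, 0.398, 0.207 and 0.273 FPKM in vehicle, 0.774, 0.535, 1.37 and 0.732 with anti-PD-L1, 0.124, 0.405, 0.873 and 0.741 with sonidegib, and 0.120, 4.08, 2.61 and 4.20 in the combination. Trbc2 measured 0.122, 1.04, 0.392 and 0.535 FPKM in vehicle, 1.96, 1.39, 3.33 and 1.57 with anti-PD-L1, 0.391, 1.22, 2.83 and 2.25 with sonidegib, and 0.430, 9.13, 6.36 and 9.93 in the combination. For both genes every anti-PD-L1 library was above every vehicle library, combination replicates 2 to 4 were the highest of all, and combination replicate 1 lay at the level of vehicle. Trbc2 was the higher of the pair in 15 of the 16 libraries, with a ratio to Trbc1 between 0.891 and 3.59. The difference of combination from vehicle was 1.36 (SE 0.36) for Trbc1 and 1.97 (SE 0.52) for Trbc2, with limma adjusted p = 0.0516 and 0.0518.

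The variable segments are other rows of the table that measure the same receptor transcripts as the constant genes, so they are not separate evidence. The 128 alpha variable segments summed to 0, 2.25, 0.650 and 0.700 FPKM in vehicle, 1.72, 0.516, 1.89 and 2.11 with anti-PD-L1, 0.301, 1.05, 2.18 and 2.63 with sonidegib, and 0.816, 3.54, 5.71 and 4.91 in the combination. The 35 beta variable segments summed to 0.575, 1.02, 0.488 and 0.422 FPKM in vehicle, 2.70, 1.23, 2.65 and 1.39 with anti-PD-L1, 0.487, 0.83, 2.04 and 1.76 with sonidegib, and 0.410, 6.31, 4.40 and 8.69 in the combination. As with the constant genes, combination replicates 2 to 4 were above all other libraries and combination replicate 1 was at the level of vehicle. This split again sets aside combination replicate 1. Between 24 and 36 alpha segments exceeded 0.01 FPKM in combination replicates 2 to 4, 7 in combination replicate 1, and 0 to 12 in vehicle. The count was 5 to 19 with anti-PD-L1 and 1 to 19 with sonidegib. For beta segments it was 10 to 11 in combination replicates 2 to 4, but also 10 in anti-PD-L1 replicate 1 and 8 in vehicle replicate 2. Exact two-sided permutation tests of the summed values gave p = 0.0571 (alpha) and p = 0.143 (beta) for combination against vehicle. The Benjamini-Hochberg adjusted p was 0.286 for each. For anti-PD-L1 against vehicle the beta sums did not overlap (exact permutation p = 0.0286, the smallest that 4 against 4 allows); over the 12 sums tested, the Benjamini-Hochberg adjusted p was 0.286.

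**Figure D2:**
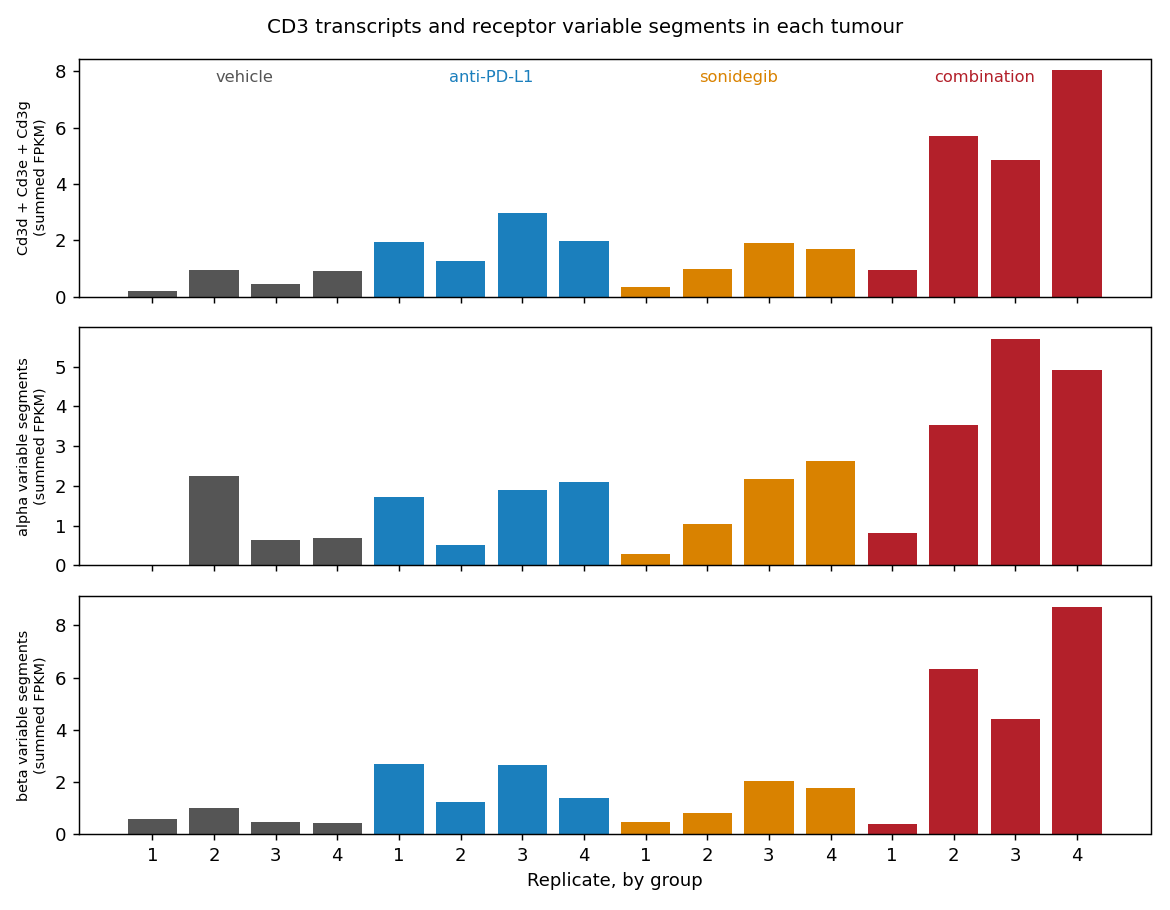
Summed FPKM of Cd3d, Cd3e and Cd3g (top), of the 128 alpha variable segments (middle) and of the 35 beta variable segments (bottom), on linear axes. Each bar is a single library, coloured by group and labelled by replicate number. Combination replicates 2 to 4 lie above all other libraries in every panel, and combination replicate 1 lies at the level of vehicle.

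Of the signalling proteins, Lat, the adaptor, rose in the combination. Lat (ENSMUSG00000030742.7; GRCm38 chr7:126363824-126369570, minus strand) measured 0.135, 0.235, 0.0414 and 0.127 FPKM in vehicle, 0.276, 0.309, 0.432 and 0.245 with anti-PD-L1, 0.201, 0.219, 0.239 and 0.312 with sonidegib, and 0.171, 0.825, 0.749 and 0.789 in the combination. Combination replicates 2 to 4 lay close together above all other libraries, combination replicate 1 lay below vehicle replicate 2, and all anti-PD-L1 libraries were above all vehicle libraries. The difference from vehicle was 0.51 (SE 0.12, limma adjusted p = 0.0480). It lost its call when any 1 of 14 of the 16 libraries was left out (adjusted p = 0.183 without combination replicate 4); without combination replicate 1 it was 0.66 (adjusted p = 0.000325).

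Zap70, the kinase that binds the phosphorylated CD3 and zeta tails (GRCm38 chr1:36761798-36782818, plus strand), measured 0.154, 0.242, 0.131 and 0.131 FPKM in vehicle, 0.269, 0.141, 0.519 and 0.262 with anti-PD-L1, 0.185, 0.309, 0.501 and 0.387 with sonidegib, and 0.261, 0.442, 0.574 and 0.259 in the combination. All combination libraries were above all vehicle libraries, by a small margin for replicates 1 and 4, and the 3 treated groups overlapped. The difference from vehicle was 0.24 (SE 0.11, limma adjusted p = 0.146) for the combination and 0.20 (SE 0.11, adjusted p = 0.269) for sonidegib alone.

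Lck, the kinase that starts the cascade (ENSMUSG00000000409.14; GRCm38 chr4:129548344-129573641, minus strand), measured 1.62, 1.33, 0.676 and 0.670 FPKM in vehicle, 0.746, 1.11, 1.32 and 1.74 with anti-PD-L1, 1.18, 1.43, 1.92 and 1.36 with sonidegib, and 1.27, 1.55, 1.92 and 1.58 in the combination. The groups overlapped throughout: vehicle replicate 1 was above 3 of the 4 combination libraries. The difference of combination from vehicle was 0.34 (95% interval -0.06 to 0.74, limma adjusted p = 0.257). Lck was the highest of the 10 genes in 8 libraries and Trbc2 in the other 8. The log2 ratio of Lck to Cd3g was 1.94 ± 1.29 (SD, n = 4) in vehicle and -0.81 ± 1.19 (SD, n = 4) in the combination, a difference of -2.75 (exact two-sided permutation p = 0.0571; adjusted p = 0.147 over the 9 ratios of Lck to another member). None of the 9 ratios passed the threshold, so that the level of Lck relative to the receptor genes differed was not shown.

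**Figure D3:**
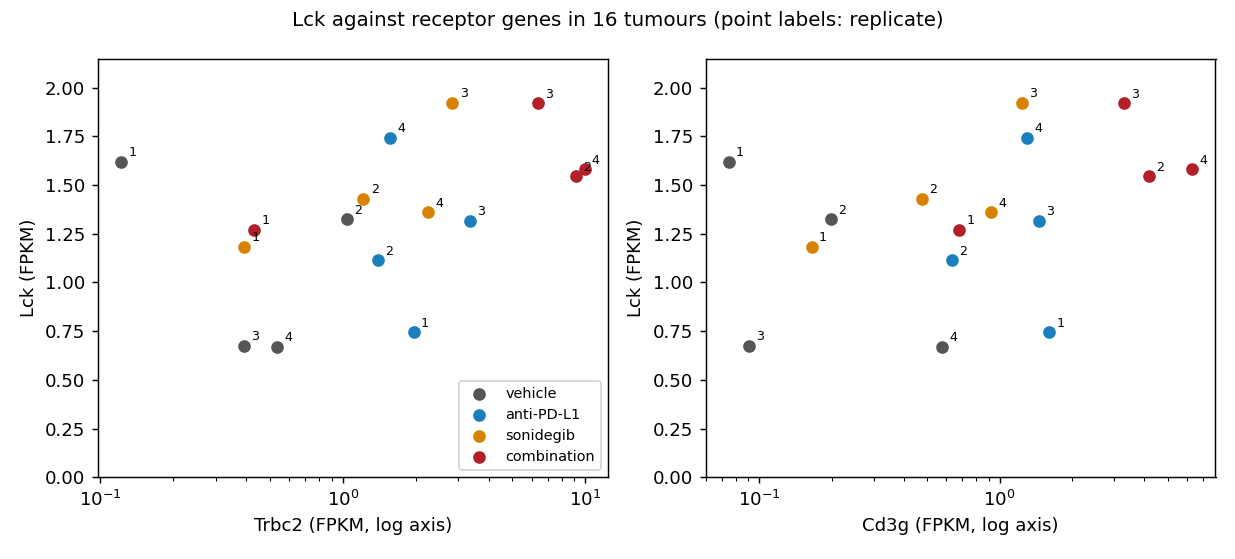
Lck (linear axis, FPKM) against Trbc2 (left) and Cd3g (right; log axes, FPKM) in the 16 libraries; points are libraries labelled by replicate number and coloured by group. Lck spans 0.670 to 1.92 FPKM, and vehicle replicate 1, low in Trbc2 (0.122 FPKM) and Cd3g (0.0746 FPKM), is above 3 of the 4 combination libraries in Lck.

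The RefSeq table holds a pair of Lck windows, 1 before the long transcripts and 1 inside the gene before the shorter transcripts. They are shown because Lck has separate start sites and followed the other members least (GRCm38.p6, minus strand, 250 bases each; capitals as for Cd3g and Cd3d).
Lck, chr4:129573642-129573891: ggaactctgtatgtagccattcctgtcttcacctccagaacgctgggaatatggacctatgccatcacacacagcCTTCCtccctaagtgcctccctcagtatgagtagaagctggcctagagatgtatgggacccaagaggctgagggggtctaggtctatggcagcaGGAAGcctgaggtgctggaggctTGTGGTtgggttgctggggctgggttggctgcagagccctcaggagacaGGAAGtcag
Lck, chr4:129558373-129558622: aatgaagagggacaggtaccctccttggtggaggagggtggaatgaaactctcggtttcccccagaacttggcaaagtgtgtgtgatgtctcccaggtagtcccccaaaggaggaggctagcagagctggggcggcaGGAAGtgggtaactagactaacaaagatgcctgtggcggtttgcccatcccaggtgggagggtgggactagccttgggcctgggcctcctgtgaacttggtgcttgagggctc
The window before the long transcripts holds 3 ETS cores and 1 RUNX motif, and the window inside the gene holds 1 ETS core and no RUNX motif. Values per transcript were not used here, so the share of each start was not measured.

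Across the 16 libraries the genes varied together to different degrees. As a description over libraries that share groups, depth and GC dependence, Pearson's r of a gene with the mean of the other 9 was 0.98 for Trbc2, 0.97 for Trbc1, 0.96 for Lat, 0.94 for Cd3g and 0.91 for Trac. It was 0.84 for Cd3e, 0.82 for Cd3d, 0.76 for Cd247, 0.68 for Zap70 and 0.49 for Lck. Over the 12 libraries without the combination, Trbc2 and Trbc1 kept 0.97 and 0.96, while Cd3e had 0.46 and Lck 0.32.

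Without combination replicate 1, 8 of the 10 genes were called against vehicle (all but Lck and Zap70), beside 4438 of the 22543 tested genes. Trbc2 then differed by 2.65 (SE 0.32, limma adjusted p = 0.000148), Trbc1 by 1.87 (SE 0.20, adjusted p = 8.14e-05) and Trac by 1.64 (SE 0.22, adjusted p = 0.000284). Combination replicate 1 was the lowest of its group for 8 of the 10, so leaving it out raises their combination means. With combination replicate 4 left out instead, Trbc2 differed by 1.67, Trbc1 by 1.13 and Trac by 1.08 (limma adjusted p = 0.183 for each). Without vehicle replicate 4, 6 members were called, beside 4895 genes. With both combination replicate 1 and vehicle replicate 3 left out, a choice made after seeing the data, 7 were called, beside 3697 genes. With the GC trend of each library removed from the log2 values, 0 of the 10 were called: Cd3g differed by 0.95 (adjusted p = 0.0538) and Lat by 0.64 (adjusted p = 0.0529), and the uncalled Cd3e and Cd247 turned to -0.27 and -0.25. With the trend divided out of the FPKM instead, also chosen after seeing the data, Cd3g differed by 1.45 (adjusted p = 0.0425), Lat by 0.58 (adjusted p = 0.0551), and the median of the 10 genes was 0.53.

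Adding sonidegib to the antibody, or the antibody to sonidegib, gave higher means for all 10 genes and no call. Against anti-PD-L1 alone, 0 of 10 members were called in the combination (0% of all genes tested; limma), 5 had an unadjusted p under 0.05 (6.8% of all genes), and 1 gene, Cd247, did not overlap between the groups (1.38% of all genes). Against sonidegib alone, 0 were called (0% of all genes; limma), 7 had an unadjusted p under 0.05 (5.01%), and again Cd247 alone did not overlap (0.665%). The median member difference was 0.27 from anti-PD-L1 and 0.38 from sonidegib, beside -0.04 for all genes in each. Cd3g differed by 0.87 (SE 0.34, limma adjusted p = 0.670) from anti-PD-L1 and by 1.30 (SE 0.34, adjusted p = 0.737) from sonidegib. Here 1 library decided the calls. Without combination replicate 1, Cd3g, Trac, Trbc1, Trbc2 and Lat were called against anti-PD-L1 (5 members, 354 genes). The same 5 and Cd3e were then called against sonidegib (6 members, 255 genes). That library was the lowest of its group for 8 of the 10 genes, so leaving it out raises their combination means. The gained calls are therefore no separate support for a difference.

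Anti-PD-L1 alone gave a higher mean of every member than vehicle and no call. In limma 0 of 10 members were called (0% of all genes), and 1, Cd3g, had an unadjusted p under 0.05 (19.6% of all genes). The groups did not overlap for 4 genes, Cd3g, Trbc1, Trbc2 and Lat (3.89% of all genes). Cd3g differed by 0.86 (SE 0.34, limma adjusted p = 0.215) and Trbc2 by 1.00 (SE 0.52, adjusted p = 0.291), and the median of the 10, 0.27, stood beside 0.18 for all genes. Sonidegib alone gave 0 calls (0% of all genes; limma), 0 unadjusted p under 0.05 (20.8%) and 0 genes without overlap (5.32%), with a median member difference of 0.24 beside 0.19. Trbc2 differed by 0.74 (SE 0.52, limma adjusted p = 0.409) there, and Cd3e by -0.05 (SE 0.15, adjusted p = 0.878). These comparisons share the vehicle libraries.

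The single agents were not told apart: 0 members were called between sonidegib and anti-PD-L1 (0% of all genes; limma), 0 had an unadjusted p under 0.05 (2.43%) and 0 did not overlap (1.73%, counted for sonidegib above anti-PD-L1). All members but Lck and Zap70 had the lower mean with sonidegib. Every member overlapped in that direction too, and the share of all genes was not counted there. The interaction, the amount by which the combination departs from the sum of the single differences, had 0 calls (0% of all genes; limma) and 0 unadjusted p under 0.05 (9.04%). It was 0.44 for Cd3g (95% interval -0.57 to 1.45) and 0.23 for Trbc2 (-1.35 to 1.80), so a positive interaction of 1 log2 unit was within the error for both genes. Across all 4 groups, limma's F test called 0 members (0% of all genes), and 6 had an unadjusted p under 0.05 (18.9%).

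**Figure D4:**
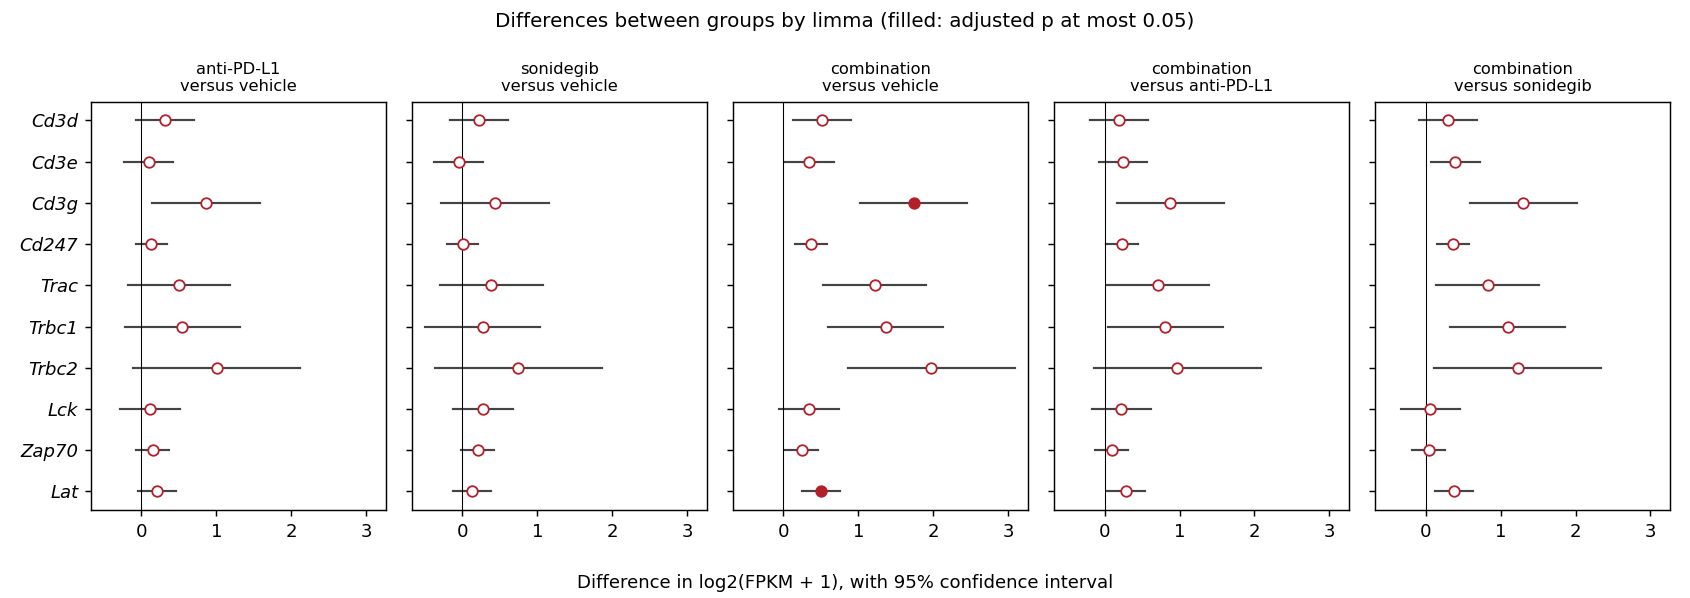
Log2 difference in log2(FPKM + 1) of each gene in 5 pairwise comparisons, with 95% intervals from limma (n = 4 libraries a group); filled points were called. Cd3g, at 1.74, and Trbc2, at 1.97, have the largest differences between combination and vehicle among the 10 genes, and the intervals for sonidegib against vehicle all include 0.

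The other genes of the receptor pathway were taken from lists by role. In the combination against vehicle none of the 11 receptor-proximal kinases and phosphatases was called, though 8 had a positive difference (median 0.20). Ptpn22, a phosphatase that restrains the receptor kinases, came nearest at 0.81 (SE 0.21, limma adjusted p = 0.0511), with means of 1.39 ± 0.73 FPKM in the combination and 0.315 ± 0.190 FPKM in vehicle (SD, n = 4). Csk, which phosphorylates the inhibitory tyrosine of Lck and is made in most cells, differed by -0.46 (limma adjusted p = 0.235). Of 20 adaptors, 18 were tested and 0 called (median 0.29). Skap1 had 0.49 (limma adjusted p = 0.0543) and Lcp2, which binds to Lat through a linker, 0.72 (adjusted p = 0.0808). Grb2, Nck2 and Cbl went the other way, by -0.79, -0.65 and -0.11 (limma adjusted p = 0.311, 0.230 and 0.619). The other tested adaptors had differences above 0. None of 14 downstream effectors was called (median 0.14).

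Of 11 genes induced by receptor signalling, 10 were tested and 0 called (median 0.30). Ifng, the gene of interferon gamma, was listed at 0 in all 4 vehicle libraries and at 0.102 to 0.525 FPKM in the combination (difference 0.34, limma adjusted p = 0.0516). Il2, the T cell growth factor, differed by 0.76 (adjusted p = 0.0547). In the other direction, Nr4a1, an early transcription factor induced by the receptor and by other stimuli, differed by -0.75 (adjusted p = 0.310) and Egr2 by -0.11 (adjusted p = 0.593); the other 6 tested genes had differences above 0. The list summed to 32.5 ± 18.5 FPKM in vehicle and 22.6 ± 6.73 FPKM in the combination (SD, n = 4). A sum follows the most abundant genes of a list, and most tested genes of this list had differences above 0. The difference between the sums was not tested, and neither was the part of single genes in it. In the other comparisons none of the genes of these 4 lists was called.

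The 6 mammary epithelial genes, which define the labelled breast tumour tissue, summed to 484 to 1999 FPKM over the 16 libraries, and 0 of 6 were called. Other T cell genes were set beside the receptor genes. Of 9 coreceptor and surface genes 8 were tested, and 1, Cd8b1, the beta chain of the CD8 coreceptor of cytotoxic T cells, rose in the combination: 1.10 ± 0.62 FPKM against 0.167 ± 0.094 FPKM in vehicle (SD, n = 4; difference 0.79, SE 0.18, limma adjusted p = 0.0480). Cd8a differed by 0.81 (adjusted p = 0.0546) and Cd4, the coreceptor of helper T cells, by 0.13 (adjusted p = 0.654). That Cd8 and Cd4 genes differed in their response was not tested. The list summed to 3.71 to 8.29 FPKM in vehicle and 4.68 to 22.7 FPKM in the combination, the lowest again combination replicate 1. Of 5 gamma delta receptor constant genes 3 were tested and 0 called.

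Some markers of other cell types were also higher in the combination. Natural killer cells share Cd247, Lck, Zap70 and Lat with T cells, and both tested genes of that list of 6 rose in the combination, Ncr1 by 0.51 (SE 0.11) and Klrk1 by 1.33 (SE 0.32; limma adjusted p = 0.0480 for each); Klrk1 is also made by CD8 T cells. The other 4, Klrb1c, Klra8, Eomes and Klre1, had means under 0.1 FPKM. The list summed to 0.117 to 0.502 FPKM in vehicle, 0.323 in combination replicate 1 and 3.88 to 5.08 FPKM in combination replicates 2 to 4. The 9 B and plasma cell genes summed to 2.62 to 5.44 FPKM in vehicle and 4.09 to 32.5 FPKM in the combination, with Ms4a1, Cd79a and Cr2 under 0.1 FPKM in every library. Of its 5 tested genes 0 were called: the B cell genes Cd79b and Fcer2a each differed by 0.02, and the immunoglobulin genes Ighm, Igkc and Jchain by 0.83, 2.08 and 1.80. The 5 lymph node stroma genes summed to 0.0667 to 0.287 FPKM in vehicle and 0.963 to 1.43 FPKM in the combination, combination replicate 1 included, where the sum was 1.05 FPKM; Cxcl13, a B cell chemokine, rose by 0.75 (SE 0.14, adjusted p = 0.0337), and Ccl21a, Glycam1 and Madcam1 had means under 0.1 FPKM. The 5 macrophage genes summed to 89.8 to 124 FPKM in vehicle and 133 to 189 FPKM in the combination, and 1 of the 5, Mrc1, a mannose receptor, rose (1.30, SE 0.25, limma adjusted p = 0.0432). The other 4 were not called, with differences of 0.60 for Adgre1, 0.66 for C1qa, 0.10 for Cd68 and -0.26 for Csf1r. Of 4 fibroblast genes 1, Dcn, the matrix protein decorin, rose (3.15, SE 0.56, limma adjusted p = 0.0373); Pdgfra at 1.09, Pdgfrb at -0.07 and Col1a1 at -0.34 were not called. None of the mast cell, platelet, neutrophil, dendritic cell or endothelial genes was called. The part of these cells in the receptor genes' differences was not tested.

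**Figure D5:**
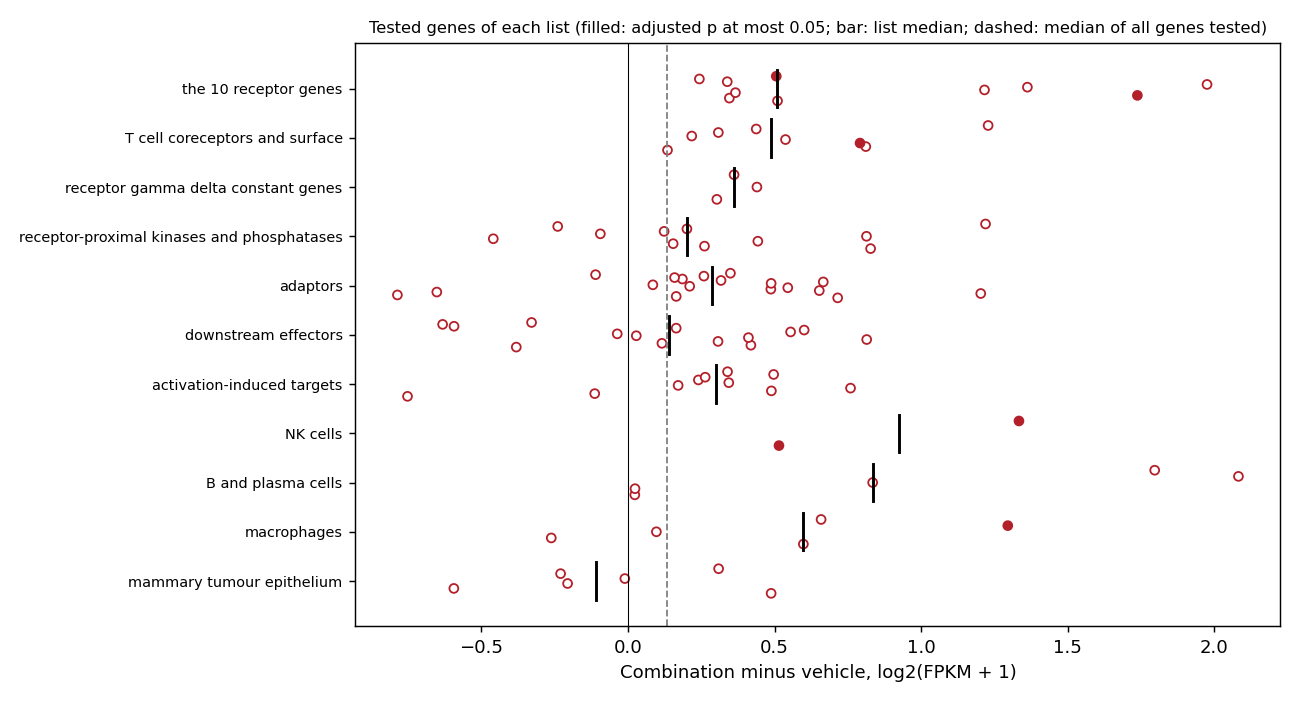
Difference of combination from vehicle, in log2(FPKM + 1), for each tested gene of the receptor genes and 10 other lists; filled points were called at an adjusted p of at most 0.05, bars are list medians, and the dashed line is the median of all tested genes (0.13). The filled points are Cd3g and Lat among the receptor genes, Cd8b1, both natural killer genes, and the macrophage gene Mrc1, which rose by 1.30.

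Among 16718 genes with a mean of at least 0.5 FPKM outside the members, the 10 whose log2 levels were most correlated with the mean of the members over the 16 libraries were Fgl2, Klrk1, H2-Ea-ps, Il2rb, Fcgr4, Xcl1, Ctss, Klrd1, Nkg7 and Ifi47 (Pearson's r 0.979 to 0.947). Klrk1, Klrd1 and Nkg7 are genes of cytotoxic lymphocytes, Il2rb is a receptor chain for interleukin 2 and interleukin 15, Xcl1 is a chemokine of T and natural killer cells, and Ctss, a lysosomal protease, and Fcgr4, an Fc receptor, are expressed by myeloid cells. Xcl1 had 5.57 ± 3.44 FPKM in the combination and 0.426 ± 0.234 FPKM in vehicle (SD, n = 4). These genes were picked because they follow the members over the same libraries. Higher levels in the combination follow from that selection and are not a further result. Over the 12 libraries without the combination, which were also part of the selection, r was 0.916 for Fgl2, 0.920 for Nkg7 and 0.766 for Klrd1.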

How the data were processed

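RNA of 16 breast tumours was measured by RNA-seq. The labels conflict on the RNA: the extraction protocol describes stranded libraries without ribosomal RNA, the molecule field polyA RNA. The deposited values are FPKM, made by the authors with tools of which the submitters' processing notes name TopHat and Cufflinks with builds GRCm38.p6 and mm10; their versions, strand setting and gene models were not stated. FPKM divides out length and mapped fragments, so abundant transcripts can shift all others. Columns were matched to libraries by the S number in each description, and 0 columns were left out. Annotation is GENCODE M21.

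Genes with a mean of at least 0.1 FPKM were tested on log2(FPKM + 1) with limma 3.58.1 in R 4.3.3 (trend, robust, 1 mean per group over 16 libraries; two-sided; Benjamini-Hochberg within each comparison at 0.05). The procedure was tested on simulated data. Summed variable segments and Lck ratios were tested by exact permutation over libraries. Whole fragment counts could not be recovered; depth was estimated from the smallest FPKM steps of 4959 genes with 1 transcript of at least 2000 bases, and is approximate. Members named are all 10. Genes of other lists are named where called or nearest the threshold. Others are named as defining for a cell type or for their role or direction, chosen after their values were seen. The members and lists were chosen with earlier results of these data known. Alternatives were the filter, pseudocount, scaling, GC trend, replicate block and each library left out. Some values of single list genes are not reported here.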

Additional observations from a re-analysis of the deposited data

Results flagged for a closer look

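Of 48 groups of 4 libraries examined, 1 held a library whose gap to its nearest neighbour was large for the range of the group: Lat in combination replicate 1, at 0.171 FPKM against 0.749 to 0.825 FPKM in the other 3, a gap of 0.882 of the range. Chance alone marks about 1 in 20 such groups. The same library was the lowest of its group for 8 of the 10 genes.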

How the results depend on the processing

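For the combination against vehicle, 2 members and 464 genes were called. The counts were 4 members (of the 5 that passed) and 1703 genes with a filter of at least 1 FPKM in at least 4 libraries, 0 and 8 with no filter, 789 genes with a pseudocount of 0.1, 5 and 1941 with quantile normalization, 6 and 1565 with median-of-ratios scaling, 0 and 1601 with the GC trend removed from the log2 values, and 1 and 61 with it divided out of the FPKM. Removing the trend from log2(FPKM + 1) takes more from genes under 1 FPKM than their values hold. The share of higher calls was 92% as reported, 58.9% with median-of-ratios scaling, 50.8% with quantile normalization, 32.8% with the GC trend removed and 70.5% with it divided out; the median gene of at least 1 FPKM lay 0.26 above vehicle.

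With the replicate block, 0 members and 5 genes were called. The replicate numbers come from the titles, and whether a number marks a shared batch is not known. Of 24 same-numbered pairs 4 had r over 0.1 (-0.38 to 0.32), and 3 of 16 libraries correlated best with their own number. These correlations do not settle it. With vehicle replicate 3 and combination replicate 1 both left out, the counts were 7 members and 3697 genes for combination against vehicle, 5 and 471 against anti-PD-L1, 6 and 305 against sonidegib, and 6 and 616 across the groups, with 1 gene each for sonidegib against vehicle and against anti-PD-L1 and 4 for the interaction. The filter at 1 FPKM gave 1 gene for combination against anti-PD-L1, 1 for the interaction and 3 across the groups; no filter gave 3 and 4 for the first and last of these.

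Leaving out each library in turn gave 0 to 8 members and 0 to 4895 genes for combination against vehicle, 0 to 5 and 0 to 354 against anti-PD-L1, 0 to 6 and 0 to 255 against sonidegib, and 0 to 6 and 0 to 2430 across the groups. It gave 0 members throughout for the others, with 0 to 3411 genes for anti-PD-L1 and 0 to 3225 for sonidegib against vehicle, 0 to 1 between them and 0 to 12 for the interaction. Of 1715 values of single members under the alternatives, 33 lost a call, 47 gained one, 57 uncalled values changed sign and 0 called values did. The cause of these shifts was not tested. Low levels limit every member: the lowest values rest on a few fragments.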
